A study of Mus musculus with 6 samples.

Results

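The interferon-stimulated genes described here are 41 genes that mammalian cells switch on when an interferon binds its receptor. They were listed by symbol. For each gene, the probe set that the platform annotation gives to that symbol alone, and that had the highest mean over the 6 arrays, was read. In all, 39 of the 41 genes had such a probe set, out of 18193 genes with one in the series. Isg15 and Ifi44 had none and were not analysed here. All 39 lay above the filter on low values, a mean log2 value of 4.97 or more that left 13090 genes, and the dimmest of them had a mean of 6.49.

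The samples were tumour cells. MVT1 is a line derived from a mouse mammary tumour that spreads to the lung. GFP-tagged MVT1 cells, 3000000 per mouse, were injected intravenously into FVB/N mice, which are syngeneic with the line, and GFP-positive cells were later sorted from the lungs. GW2580, which blocks the kinase of the CSF1 receptor, was given daily by mouth at 160 mg/kg, and the control mice received the carrier, hydroxypropylmethylcellulose with Tween-80. The 3 groups were vehicle at 1 week after injection (the micrometastatic stage in the labels), vehicle at 2 weeks (macrometastatic) and GW2580 at 2 weeks, with dosing from 1 week onwards. All groups carried the same line and tag. Each group had 2 arrays. The vehicle groups came from 2 mice each. The sources used here do not state the number of mice behind the GW2580 arrays, whose spread may then be technical. The CSF1 receptor is made chiefly by macrophages, while the RNA measured was that of the sorted tumour fraction, and the series title names the effect of its inhibition in tumour macrophages on gene expression of metastatic epithelial cells as the question.

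Type I interferons bind the receptor pair IFNAR1 and IFNAR2 and activate the kinases JAK1 and TYK2. These lead STAT proteins, STAT2 among them, to join IRF9 in a complex that binds an element called ISRE in the promoters of target genes. Interferon gamma binds IFNGR1 and IFNGR2, signals through JAK1 and JAK2, and acts on promoters that hold a GAS element. The target genes encode RNA sensors, enzymes that degrade or block foreign RNA, GTPases that attack vacuoles of intracellular pathogens, and transcription factors and inhibitors that feed back on the pathway. Tumour cells can respond to interferon too.

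Promoter sequence was looked at first, because the genes were listed by their known response and not by any sequence. RefSeq promoter windows (GRCm38.p6, 250 bases before to 50 bases after the start, 36 windows) were matched for 30 of the 39 genes. Usp18, Oas2, Dhx58, Mx1, Mx2, Zbp1, Parp9, Parp14 and Rtp4 were not matched. An ISRE-type string (GAAA, any 2 bases, then GAAA, or TTTC, any 2 bases, then TTTC on the other strand) was found in the windows of 15 of the 30 genes (50%), against 3.99% of all 27025 genes with a window and 3.44% of all 32851 windows. A GAS-type string, TTCNNNGAA, which reads the same on both strands, was found in 9 of the 30 (30%), against 9.55% of all genes and 8.30% of all windows. A match says only that these letters occur in the window. The stretches below, each of 60 bases and read 5′ to 3′ on the gene's strand, are shown because they come from genes of different roles: 4 antiviral genes first, then 3 interferon-inducible GTPases. All 7 genes were higher on replicate 1 of GW2580 than on replicate 2. On the probe sets chosen, replicate 2 lay above both 2-week vehicle arrays for the first 4 and not for the last 3. Another probe set of Rsad2 and another of Gbp2 did not keep this split. Capitals mark ISRE-type matches, which overlap each other in Oas1a and Irgm1.
Ifit1: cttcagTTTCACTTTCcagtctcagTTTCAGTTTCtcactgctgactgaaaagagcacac
Ifit3: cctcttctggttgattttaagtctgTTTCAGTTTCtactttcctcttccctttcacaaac
Oas1a: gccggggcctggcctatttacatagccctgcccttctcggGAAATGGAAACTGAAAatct
Rsad2: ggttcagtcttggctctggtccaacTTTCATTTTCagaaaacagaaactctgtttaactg
Gbp2: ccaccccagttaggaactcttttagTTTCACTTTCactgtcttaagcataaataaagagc
Igtp: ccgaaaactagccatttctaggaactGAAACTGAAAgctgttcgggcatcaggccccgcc
Irgm1: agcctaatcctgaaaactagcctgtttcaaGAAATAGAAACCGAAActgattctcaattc
In that order the stretches lie at chr19:34640779-34640838 (plus strand), chr19:34583382-34583441 (plus), chr5:120907526-120907585 (minus), chr12:26456538-26456597 (minus), chr3:142620579-142620638 (plus), chr11:58199496-58199555 (plus) and chr11:48871421-48871480 (minus). All 7 lie upstream of the annotated start. The 7 stretches were picked among genes that hold the string, so they are examples and no comparison. Over all genes of the list with a window, the ISRE-type string was found for 4 of 5 GTPases, not Ifi47, and for 11 of the 25 others. It was not found for Oasl1, Oasl2, Irf7, Irf9, Herc6 or Cmpk2, among others. The GAS-type string was found for 1 of 5 GTPases, Igtp, and for 8 of the 25 others.

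Values below are log2 RMA values, and the values of a group's replicate 1 and replicate 2 are given in that order. A difference is between group means on the log2 scale, and a difference of 1 is a doubling. Differences were tested with limma over all 13090 genes, with Benjamini-Hochberg adjustment over all of them. A gene is said to have risen or fallen only at an adjusted p under 0.05. The level of 1 probe set cannot be compared with that of another gene, because probes differ in affinity.

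With GW2580, the interferon-stimulated genes stood higher in the sorted cells than with vehicle at the same 2 weeks, and none passed the test. The difference was above 0 for 36 of 39 genes, where 41.7% of all genes tested had one above 0. Its median was 0.44, a ratio of 1.35, against -0.05 over all genes. None of the 39 rose (0.0688% of all genes did) and none fell (0.298% did). At an unadjusted limma p under 0.05, 18 of the 39 were higher (5.36% of all genes) and 0 were lower (12.6% of all genes). Both GW2580 arrays lay above both 2-week vehicle arrays for 22 genes (18.3% of all genes), and for no gene did both lie below (31.5%). Differences ran from -0.13 for Mx1 to 1.23 for Zbp1, and the smallest adjusted p was 0.079, for Oasl2.

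The GW2580 arrays were unlike each other for these genes. GW2580 replicate 1 was the highest of all 6 arrays for 32 of 39 genes (12.5% of all genes tested). It stood above GW2580 replicate 2 for 34 of them (39.3% of all genes), by a median of 0.57, against -0.07 over all genes. Replicate 2 was the higher for Trim25, Oas3, Stat2, Mx2 and Isg20. The 2-week vehicle replicate 1 was the lowest of the 6 arrays for 21 genes (16.6% of all genes). After centring each gene on its mean over the 6 arrays, the median of the 39 genes was -0.13 and -0.03 on the 1-week vehicle arrays, -0.26 and -0.09 on the 2-week vehicle arrays, and 0.47 and 0.03 on the GW2580 arrays. GW2580 replicate 1 therefore stood apart, while replicate 2 lay close to the higher vehicle arrays by this median. Without GW2580 replicate 1 the median difference from 2-week vehicle was 0.22, with 31 of 39 genes above 0 and a median over all genes of -0.02. Without replicate 2 it was 0.67, with 36 above 0.

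**Figure D1:**
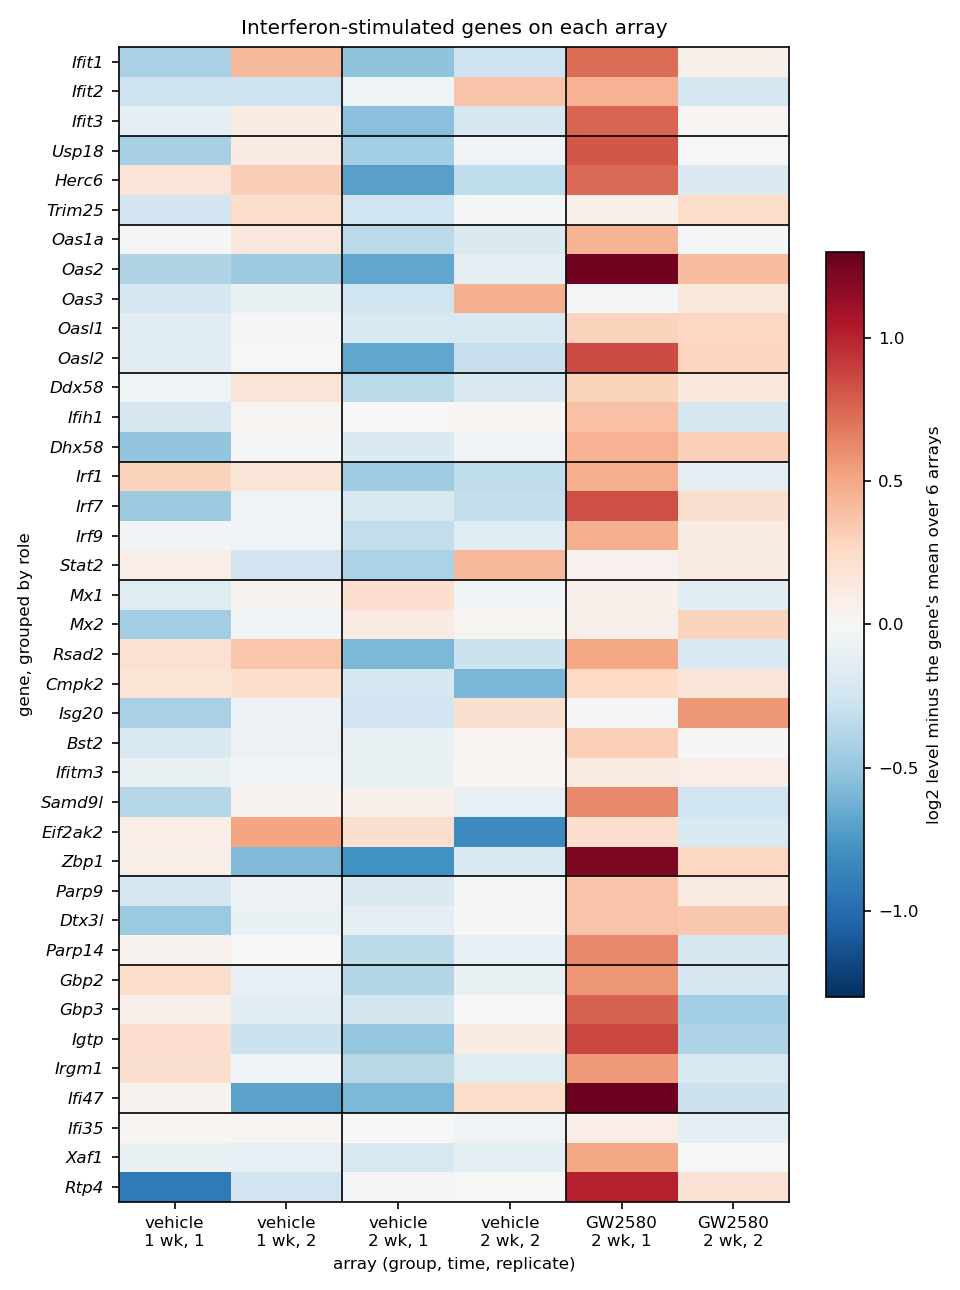
Log2 value of each of the 39 interferon-stimulated genes (rows, by role) on each of the 6 arrays (columns), minus the gene's mean over the 6 arrays (colour scale, log2 units). The column of GW2580 replicate 1 is the highest for 32 of the 39 genes, and the column of 2-week vehicle replicate 1 the lowest for 21.

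GW2580 replicate 2 taken alone exceeded both 2-week vehicle arrays for 24 of 39 genes (33.1% of all genes) and all 4 vehicle arrays for 15 (18.9% of all genes). For 12 genes both GW2580 arrays exceeded all 4 vehicle arrays (6.77% of all genes). These were, on the probe sets chosen, Oas2, Oasl1, Oasl2, Dhx58, Irf7, Irf9, Ifitm3, Zbp1, Parp9, Dtx3l, Xaf1 and Rtp4. Other probe sets above the filter had the same order for Dhx58 and Dtx3l, but not for Zbp1 or Xaf1. No IFIT gene, no ISG15 pathway gene and no interferon-inducible GTPase was among the 12. These groups had 3, 3 and 5 genes tested, too few to set 0 apart from the 6.77% of all genes.

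Members of the IFIT family bind RNA that lacks host cap marks and block its translation. Ifit1 read 7.11 and 7.95 at 1 week, 7.0 and 7.26 with vehicle at 2 weeks, and 8.25 and 7.59 with GW2580. Both GW2580 values lay above both 2-week vehicle values, but replicate 2 lay below the higher 1-week value. The GW2580 difference from 2-week vehicle was 0.80 (SE 0.30, 95% interval 0.11 to 1.48, n = 2 and 2, limma adjusted p = 0.219). Ifit3, a partner of Ifit1 in the same complexes, had the same arrangement of 2-week arrays, with 6.98 and 7.30 for vehicle, 8.28 and 7.55 for GW2580, and a difference of 0.77 (SE 0.24, adjusted p = 0.158). Ifit2 did not share it. Its GW2580 values of 7.24 and 6.56 lay on either side of the 2-week vehicle values of 6.73 and 7.16, and the difference was -0.05 (SE 0.23, 95% interval -0.59 to 0.49, adjusted p = 0.938).

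The ISG15 pathway attaches the ubiquitin-like protein ISG15 to other proteins. Herc6, the main ISG15 ligase of mice, read 9.74 and 9.89 at 1 week, 8.87 and 9.25 with vehicle at 2 weeks, and 10.31 and 9.39 with GW2580. The 2-week vehicle arrays were the lowest and did not overlap with either other group. Its difference from 2-week vehicle was 0.80 (SE 0.28, 95% interval 0.16 to 1.44, adjusted p = 0.199). All 4 probe sets of Herc6 gave a difference between 0.65 and 0.80. Usp18, the protease that removes ISG15 and also dampens the type I receptor, differed by 0.65 (adjusted p = 0.285) with GW2580 values of 9.67 and 8.86 against 8.42 and 8.81. Trim25, the ubiquitin ligase that activates the sensor RIG-I, differed by 0.29 on the probe set chosen. A dimmer Trim25 probe set gave 0.82, so its probe sets disagreed in size.

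The oligoadenylate synthetases make the signal that activates RNase L upon binding double-stranded RNA, and the Oas-like proteins are relatives. Oas2 read 7.29 and 7.21 at 1 week, 7.01 and 7.57 with vehicle at 2 weeks, and 8.94 and 8.08 with GW2580. Both GW2580 arrays lay above all 4 vehicle arrays. The difference from 2-week vehicle was 1.22 (SE 0.28, 95% interval 0.57 to 1.87, 2.33-fold, adjusted p = 0.0971). Oasl2, an Oas-like protein with ubiquitin-like domains, read 9.07 and 9.20, then 8.53 and 8.91, then 10.06 and 9.49. It too had both GW2580 arrays above the rest, with a difference of 1.05 (SE 0.21, 95% interval 0.57 to 1.54, 2.07-fold, adjusted p = 0.079).

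Without GW2580 replicate 2, 3 genes of the list rose in this comparison: Oas2, Oasl2 and Herc6 (0.313% of all genes rose in that fit). Oas2 then differed by 1.65, Oasl2 by 1.34 and Herc6 by 1.26, and the lone GW2580 array is assumed in that fit to vary like the other groups. None passed without GW2580 replicate 1. Over the 15 alternatives the adjusted p of Oas2 ran from 0.0429 to 0.298 and that of Oasl2 from 0.0429 to 0.251.

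The other synthetases were uneven. Oasl1, which restrains translation of Irf7 mRNA, had GW2580 values of 8.51 and 8.49 against 8.03 and 8.02, and these replicates lay closer together than those of the genes above. Its difference was 0.47 (SE 0.12, adjusted p = 0.112). Oas1a differed by 0.48. Oas3 differed by -0.04, with GW2580 values of 8.10 and 8.27 inside the range of the 2-week vehicle values of 7.87 and 8.59.

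The RNA sensors recognise viral RNA in the cytoplasm and signal to interferon induction. Ddx58, which encodes RIG-I, read 9.06 and 9.28, then 8.76 and 8.93, then 9.40 and 9.25. Its GW2580 arrays lay above the 2-week vehicle arrays and near the 1-week arrays, with a difference from 2-week vehicle of 0.48 (SE 0.14, 95% interval 0.16 to 0.81, adjusted p = 0.144). Dhx58, which encodes LGP2, a regulator of the other sensors, read 7.58 and 8.08, then 7.90 and 8.05, then 8.54 and 8.40. Here both GW2580 arrays lay above all vehicle arrays, with a difference of 0.50 (SE 0.18, 95% interval 0.08 to 0.91, adjusted p = 0.206). Ifih1, which encodes MDA5, differed by 0.06, and its GW2580 values of 9.27 and 8.66 enclosed the vehicle values of 8.90 and 8.92.

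Among the transcription factors, Irf7 drives the second wave of type I interferon synthesis. It read 8.14 and 8.56 at 1 week, 8.41 and 8.30 with vehicle at 2 weeks, and 9.45 and 8.82 with GW2580. Both GW2580 arrays stood above all vehicle arrays, and the difference from 2-week vehicle was 0.78 (SE 0.22, 95% interval 0.26 to 1.29, 1.71-fold, adjusted p = 0.141). Irf9, the DNA-binding part of the type I complex, showed the same order, with 8.20 and 8.18, then 7.92 and 8.08, then 8.70 and 8.34, and a difference of 0.52 (SE 0.15, adjusted p = 0.145). Stat2, its partner, differed by 0.07 on the probe set chosen, where its 2-week vehicle values of 6.08 and 6.91 were farther apart than the group means. A second Stat2 probe set of similar level read 6.30 and 6.35 with vehicle at 2 weeks and 6.57 and 6.66 with GW2580. Its difference was 0.29, so the probe sets of Stat2 disagreed. The 6.91 was on 2-week vehicle replicate 2, an array that control probe sets set apart. Irf1, which responds to both types of interferon, read 10.25 and 10.12 at 1 week, 9.50 and 9.63 with vehicle at 2 weeks, and 10.43 and 9.84 with GW2580. It was lowest on the 2-week vehicle arrays, and the GW2580 difference from them was 0.57 (SE 0.19, 95% interval 0.12 to 1.02, adjusted p = 0.191).

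The antiviral effectors act directly against viruses, and their median difference of 0.25 was the smallest of the 9 role groups. Zbp1, a sensor of Z-form nucleic acid that can start necroptosis, was the exception in size. It read 8.45 and 7.80 at 1 week, 7.59 and 8.18 with vehicle at 2 weeks, and 9.59 and 8.65 with GW2580. Both GW2580 values exceeded all vehicle values, and the difference of 1.23 (SE 0.34, 95% interval 0.45 to 2.02, 2.35-fold, adjusted p = 0.131) was the largest of the list, though replicates lay apart in every group. Its second probe set gave 1.3, but there GW2580 replicate 2, at 7.96, lay below 1-week replicate 1, at 8.06.

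Rsad2 encodes viperin, a radical-SAM enzyme that makes a chain-terminating nucleotide, and Cmpk2, next to it in the genome, encodes a mitochondrial nucleotide kinase. Rsad2 read 9.88 and 10.04, then 9.10 and 9.40, then 10.18 and 9.48, with a GW2580 difference of 0.58 (SE 0.23, 95% interval 0.06 to 1.10, adjusted p = 0.234). Cmpk2 read 8.39 and 8.44, then 7.98 and 7.62, then 8.47 and 8.38. On this probe set the Cmpk2 replicates agreed more closely within the GW2580 group than within the 2-week vehicle group. The difference was 0.63 (SE 0.15, 95% interval 0.29 to 0.97, 1.55-fold, adjusted p = 0.1). A second Cmpk2 probe set had the reverse, with 7.55 and 7.53 for vehicle at 2 weeks and 8.68 and 7.92 for GW2580. Its difference was 0.76.

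The remaining effectors differed less. Mx1 and Mx2, dynamin-like GTPases that trap viral nucleocapsids, differed by -0.13 and 0.10. Isg20, an RNA exonuclease, differed by 0.29, Eif2ak2, the kinase PKR, by 0.32, and Samd9l by 0.20. The membrane proteins Bst2, or tetherin, and Ifitm3, which blocks fusion in endosomes, differed by 0.19 and 0.13. Ifitm3 was nearly flat, at 12.94 to 13.14 over the 6 arrays.

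Parp9 and Dtx3l form a complex of an ADP-ribosyltransferase relative and a ubiquitin ligase. Dtx3l read 8.95 and 9.34, then 9.30 and 9.41, then 9.80 and 9.78, so that the GW2580 replicates lay close together and above all others. Its GW2580 difference was 0.44 (SE 0.15, 95% interval 0.08 to 0.79, 1.35-fold, adjusted p = 0.201). Parp9 read 10.57 and 10.31 with GW2580 against 10.01 and 10.18, a difference of 0.35 (adjusted p = 0.263). Parp14, a mono-ADP-ribosyltransferase, read 8.83 and 8.78, then 8.44 and 8.67, then 9.40 and 8.56. It was high on GW2580 replicate 1 alone, and its difference was 0.42 (SE 0.25, 95% interval -0.15 to 1.00, adjusted p = 0.408).

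The guanylate-binding proteins Gbp2 and Gbp3 and the immunity-related GTPases Igtp, Irgm1 and Ifi47 are known as strong targets of interferon gamma. Ifi47 read 9.54 and 8.80 at 1 week, 8.91 and 9.73 with vehicle at 2 weeks, and 10.77 and 9.21 with GW2580. The groups overlapped, and the difference of 0.67 (SE 0.49, 95% interval -0.47 to 1.81, adjusted p = 0.515) was smaller than the 1.56 between the GW2580 replicates. Irgm1 read 8.73 and 8.48, then 8.16 and 8.36, then 9.07 and 8.31, with a difference of 0.43 (SE 0.24, 95% interval -0.12 to 0.97, adjusted p = 0.384). Igtp was at 10.97 and 9.71 with GW2580 against 9.60 and 10.20, Gbp2 at 12.60 and 11.80 against 11.64 and 11.93, and Gbp3 at 10.26 and 9.05 against 9.25 and 9.48.

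On the probe sets chosen, all 5 GTPases therefore had GW2580 replicate 1 above the 4 vehicle arrays and GW2580 replicate 2 not above both 2-week vehicle arrays. Among the other 34 genes, replicate 2 was above both 2-week vehicle arrays for 24. The arrangement of the GTPases was also that of Ifit2, Ifih1, Parp14, Samd9l, Bst2 and Ifi35, so it was not theirs alone. Without GW2580 replicate 1 the median difference of the GTPases was -0.11, with 2 of 5 above 0. Over the other 34 genes it was then 0.24, with 29 above 0. On the 1-week arrays, replicate 1 was above replicate 2 for 5 of 5 GTPases and for 8 of the other 34 genes. The share over all genes was not counted for that order. These counts describe single arrays and were not tested.

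Of the last 3 genes, Rtp4, a chaperone of membrane receptors, read 8.03 and 8.70, then 8.93 and 8.94, then 9.95 and 9.14. Its GW2580 difference was 0.61 (SE 0.29, 95% interval -0.05 to 1.27, adjusted p = 0.311). Xaf1, which opposes the apoptosis inhibitor XIAP, read 9.57 and 9.66 with vehicle at 2 weeks and 10.28 and 9.78 with GW2580, a difference of 0.42 (adjusted p = 0.257). Ifi35 was flat, between 10.87 and 11.07 on all arrays.

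**Figure D2:**
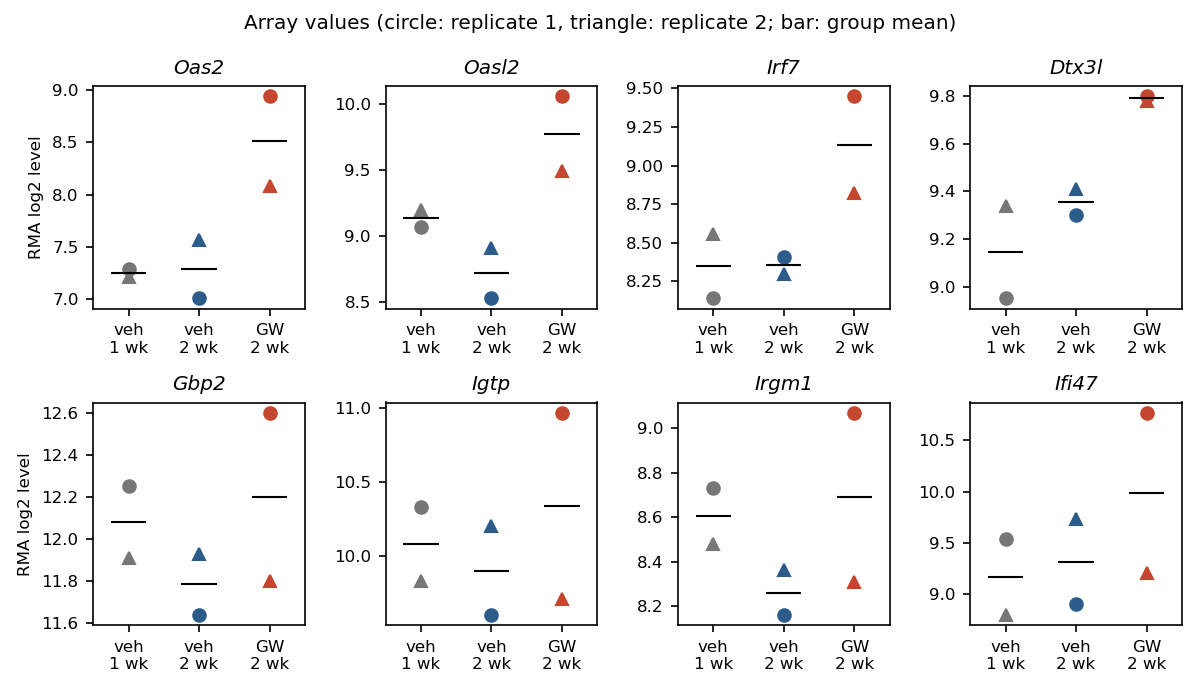
Log2 level (vertical axis) of the chosen probe sets of 8 genes in the 3 groups (horizontal axis), 1 point per array, circles for replicate 1 and triangles for replicate 2, with a bar at each group mean. Oas2, Oasl2, Irf7 and Dtx3l (top row) have both GW2580 points above all 4 vehicle points, while for the GTPases Gbp2, Igtp, Irgm1 and Ifi47 (bottom row) replicate 1 of GW2580 is above them and replicate 2 is not.

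The time comparison sets vehicle at 2 weeks against vehicle at 1 week, that is, larger against smaller metastases in control mice, which received the carrier. Of the 39 genes 1 passed the test, where 6.45% of all genes did. It was Cmpk2, which fell (2.71% of all genes fell), and none rose (3.74% of all genes did). Differences lay above 0 for 17 genes and below 0 for 22 (52.9% of all genes lay above 0), with a median of -0.08 against 0.02 over all genes. At an unadjusted limma p under 0.05, 5 genes were lower (9.45% of all genes) and 0 were higher (14.1%). The 2-week values lay wholly below the 1-week values for 14 genes (25.2% of all genes) and wholly above for 3 (31.5%).

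Cmpk2 fell by 0.62 (SE 0.15, 95% interval -0.96 to -0.28, limma adjusted p = 0.0495) between 1 and 2 weeks. This value lies just under the threshold, and the call held in 4 of 15 alternatives, where the adjusted p ran from 0.0389 to 0.271. It was lost on leaving out any 1 of the 6 arrays, with a difference of -0.80 to -0.44 in those fits. The second Cmpk2 probe set gave -0.47. The differences of Herc6 (-0.76, SE 0.28, adjusted p = 0.146), Rsad2 (-0.71, SE 0.23, adjusted p = 0.105) and Irf1 (-0.62, SE 0.19, adjusted p = 0.0989) were as large as that of Cmpk2 or larger and did not pass. They passed when only the 4 vehicle arrays were fitted, where 3.35% of all genes fell. Leaving out either GW2580 array gives that same fit in time and is no further evidence. For Herc6, Rsad2 and Irf1 both 2-week arrays lay below both 1-week arrays.

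The other genes had no shared direction in time. Ifit1 differed by -0.41, Ifit3 by -0.37, Oasl2 by -0.42, Ddx58 by -0.33, Irgm1 by -0.34 and Eif2ak2 by -0.60. The difference was 0.57 for Rtp4 (adjusted p = 0.282), 0.43 for Ifit2 (adjusted p = 0.319), 0.32 for Mx2, 0.21 for Dtx3l and 0.14 for Dhx58. Oas2 and Irf7 differed by 0.04 and 0.00, Zbp1 by -0.24, Parp14 by -0.25 and Ifi47 by 0.15. Trim25 differed by -0.13 on the probe set chosen and by -0.91 on a dimmer one. The unadjusted limma p of the dimmer one was 0.00023, in a fit of all probe sets without a filter. Medians by role group ran from -0.37 for the IFIT family to 0.11 for the RNA sensors. The median of the 39 genes was 0.02 without 2-week vehicle replicate 1 and -0.24 without replicate 2, so its sign rested on 1 array.

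GW2580 at 2 weeks was also set against vehicle at 1 week. This comparison shares the GW2580 arrays with the inhibitor comparison and the 1-week arrays with the time comparison, so the values are given side by side and not as further evidence. None of the 39 genes rose (0.359% of all genes did) and none fell (0.153%). The difference was above 0 for 35 genes (45.8% of all genes), with a median of 0.30 against -0.02 over all genes. At an unadjusted limma p under 0.05, 10 were higher (6.64% of all genes) and 0 lower (10.4%). Both GW2580 arrays lay above both 1-week arrays for 17 genes (18.8% of all genes) and below for 0 (27.9%).

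The genes differed in where the 1-week level stood. Oas2 was 1.26 higher than at 1 week (SE 0.28, 2.39-fold, adjusted p = 0.0881), Rtp4 1.18 higher (SE 0.29, 2.27-fold, adjusted p = 0.101), Zbp1 0.99 (adjusted p = 0.201), Irf7 0.78 (adjusted p = 0.139), and Dtx3l 0.65 (SE 0.15, adjusted p = 0.0983). For Oas2, Irf7 and Zbp1, the 2 vehicle groups were within 0.24 of each other. Cmpk2 (0.01), Herc6 (0.03), Irf1 (-0.05), Rsad2 (-0.13), Irgm1 (0.09), Ddx58 (0.15) and Parp14 (0.18) stood within 0.18 of their 1-week mean, Ifit1 (0.39), Ifit2 (0.38) and Oasl2 (0.64) above it. Without GW2580 replicate 1 the median over the 39 genes was 0.08, with 24 above 0. Without replicate 2 it was 0.51, with 38 above 0.

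**Figure D3:**
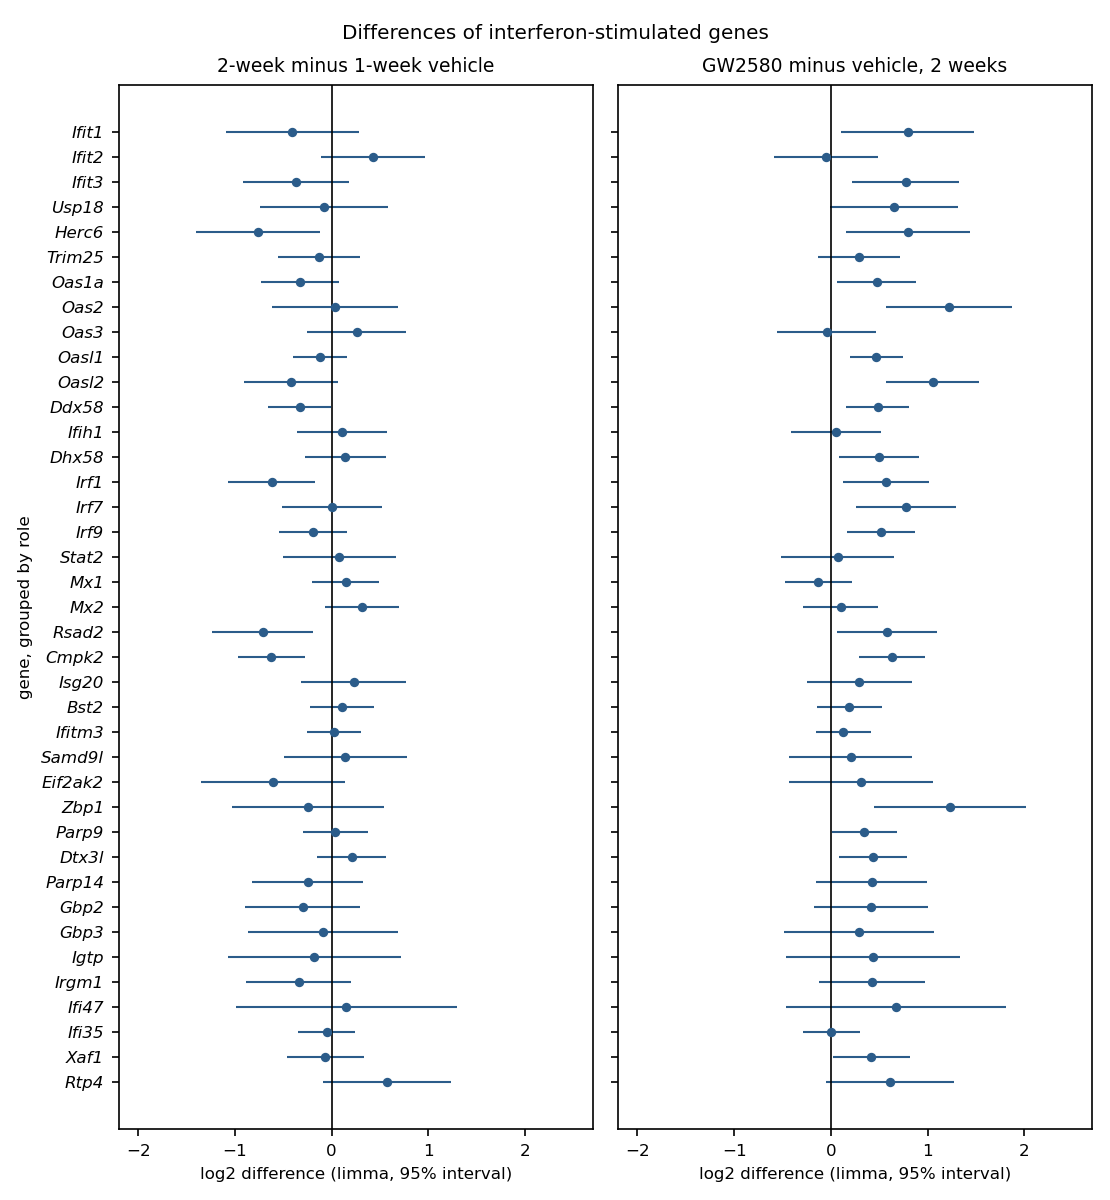
Difference in log2 value (horizontal axis) for each of the 39 genes (rows), for 2-week vehicle minus 1-week vehicle and for GW2580 minus 2-week vehicle, with 95% intervals from the limma fit. In the GW2580 comparison 36 of 39 points lie above 0, and in the time comparison 17 do. Only Cmpk2, in time, passed the adjusted threshold.

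The rest of the interferon pathway was read from lists of other genes. Of 14 interferon ligand genes, 8 lay below the filter and 5 had no probe set of their own. Ifnb1, the main type I ligand of many cells, read 4.73 to 4.97 and Ifng 3.48 to 4.05 over the 6 arrays, with no array apart. Ifna1, the 1 ligand tested, read 6.58 and 5.97, then 5.85 and 6.26, then 6.20 and 6.08, and the groups overlapped. Its difference with GW2580 was 0.08 (adjusted p = 0.876).

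Of 5 receptor genes tested out of 6, none passed in any comparison in the fit used here. With GW2580, Ifnar1, the signalling chain for type I interferon, differed by -0.13 (adjusted p = 0.597), Ifngr1, the ligand-binding chain for interferon gamma, by 0.08 (adjusted p = 0.811), and Il10rb, shared by the interleukin-10 and lambda interferon receptors, by 0.37 (adjusted p = 0.193). Ifngr2, the second interferon gamma chain, read 8.95 and 8.47 at 1 week, 7.97 and 7.99 with vehicle at 2 weeks, and 8.67 and 8.43 with GW2580. It was lowest on both 2-week vehicle arrays, with a difference of -0.73 in time (SE 0.18, adjusted p = 0.0511) and of 0.57 with GW2580 (SE 0.18, adjusted p = 0.161). The time difference passed in 6 of 15 alternatives, with an adjusted p of 0.0298 to 0.316. Of 4 JAK and STAT genes tested out of 5, none passed. Jak2 and Tyk2, kinases of the gamma and type I receptors, differed with GW2580 by 0.39 and 0.22.

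Of 11 tested genes that induce interferon, out of 15, 1 fell in time (2.71% of all genes did) and none passed with GW2580. Irf3, the factor that starts interferon transcription once a sensor is engaged, read 10.51 and 10.58 at 1 week and 9.92 and 10.04 with vehicle at 2 weeks, and fell by 0.57 (SE 0.12, limma adjusted p = 0.0381). That call was lost on leaving out any 1 of the 4 vehicle arrays. It was also lost when all probe sets were fitted, and when the probe sets of a gene were averaged, which gave -0.14. With GW2580 it read 10.31 and 10.34, between those groups. Of 8 negative regulators tested out of 9, none passed. Socs3, a feedback inhibitor of cytokine receptors, read 10.67 and 10.45, then 9.84 and 10.12, then 10.90 and 10.60, a GW2580 difference of 0.77 (SE 0.17, adjusted p = 0.0861). Socs1, the main brake on interferon gamma signalling, read 7.71 and 7.22, then 6.61 and 5.50, then 7.14 and 6.65, a time difference of -1.41 (SE 0.35, adjusted p = 0.0531) and a GW2580 difference of 0.84 (adjusted p = 0.258). Both were lowest with vehicle at 2 weeks. In time, Socs1 passed in 4 of 15 alternatives (adjusted p 0.00911 to 0.350) and Socs3 in 1 (0.0493 to 0.425).

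A further 57 interferon-induced genes, none of them among the 41, gave 43 tested. With GW2580 none passed at the adjusted threshold (0.367% of all genes did). At an unadjusted limma p under 0.05, 10 were higher (5.36% of all genes) and 0 lower (12.6%). The difference was above 0 for 38 (41.7% of all genes), and the median was 0.25, against -0.05 over all genes. Both GW2580 arrays lay above both 2-week vehicle arrays for 16 (18.3% of all genes). GW2580 replicate 1 was the highest array for 25 of the 43 (12.5% of all genes). Without that array, the median was 0.13, with 31 above 0, and without GW2580 replicate 2 it was 0.41, with 36 above 0. In time 1 of the 43 rose (3.74% of all genes did) and 1 fell (2.71% did), counts near the shares over all genes. Trafd1, a feedback regulator of innate signalling, read 8.6 and 8.50 at 1 week and 9.11 and 9.24 with vehicle at 2 weeks, a rise of 0.63 (SE 0.14, limma adjusted p = 0.0404). Ifi27l2a, a small mitochondrial protein, read 7.96 and 7.38 and then 6.21 and 6.55, and fell by 1.29 (SE 0.30, limma adjusted p = 0.0455). Both calls were lost on leaving out any 1 of the 4 vehicle arrays, and when all probe sets were fitted. That of Trafd1 was also lost with a common 75th percentile and with averaged probe sets, which gave 0.28, and that of Ifi27l2a with eBayes with trend and robust.

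Uba7, which encodes the activating enzyme of ISG15, was singled out after its values were seen. It read 8.36 and 8.67, then 8.16 and 8.53, then 9.53 and 9.12, with both GW2580 arrays above all vehicle arrays and a GW2580 difference of 0.98 (SE 0.20, adjusted p = 0.079).

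**Figure D4:**
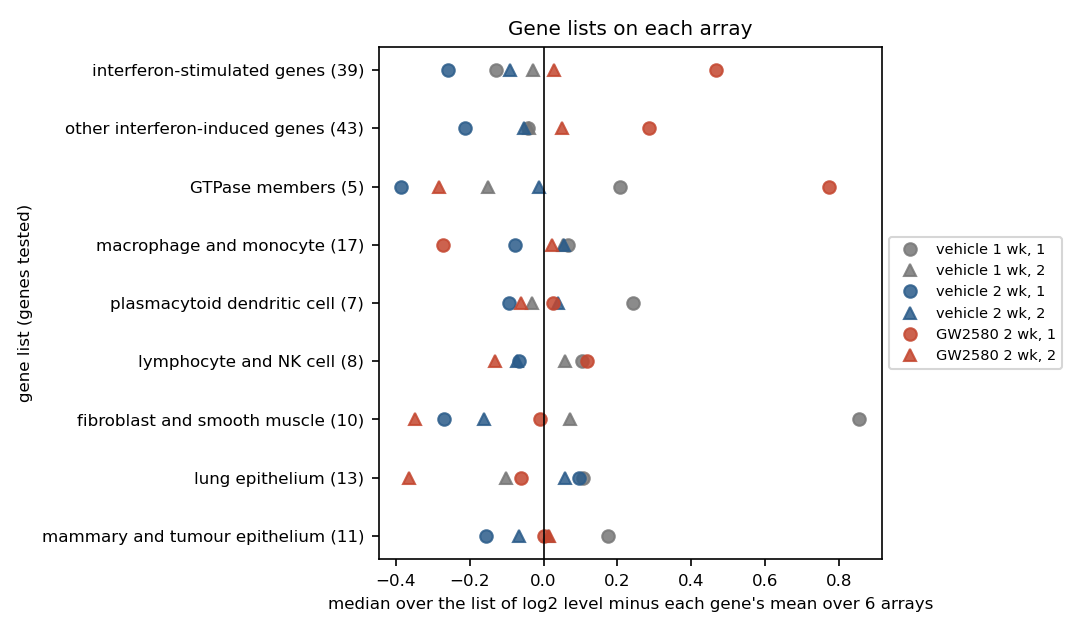
Median over each list of the log2 level minus each gene's mean over the 6 arrays (horizontal axis), for the interferon-stimulated genes, the other interferon-induced genes, the GTPases and 6 lists of cell type markers (rows), with 1 point per array. The median of the 39 genes is 0.47 on GW2580 replicate 1 and lies between -0.26 and 0.03 on the other 5 arrays, and that of the 5 GTPases is 0.77 on GW2580 replicate 1 and -0.28 on replicate 2.

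The label of tumour epithelial cell was set against 15 mammary and tumour epithelial markers, of which 11 were tested. Krt8 (13.52 to 13.82) and Krt18 (12.93 to 13.44), keratins of simple epithelium, were high on all arrays, and Epcam read 6.85 to 7.31, whereas Cdh1, which encodes E-cadherin, lay below the filter at 3.49 to 3.99, as did Cldn4, Cldn7 and Elf5. In time 1 of the 11 rose (3.74% of all genes did), Myc (0.98, limma adjusted p = 0.0383). Another 1 fell (2.71% of all genes did), Csn3 (-0.95, limma adjusted p = 0.0294). With GW2580 none passed and the median difference was 0.21. The fraction also held signal of other cells. Ptprc, which encodes the pan-leukocyte protein CD45, read 7.57 and 7.73, then 6.97 and 7.11, then 6.98 and 6.85. It fell by 0.61 in time (SE 0.13, limma adjusted p = 0.0387), a call lost without any 1 of the 4 vehicle arrays, with all probe sets fitted and with averaged probe sets (-0.26), and differed by -0.12 with GW2580. Csf1r, the target of GW2580, read 7.71 and 7.91, then 7.57 and 7.52, then 7.22 and 7.84, a difference of -0.02 with GW2580 (SE 0.20, adjusted p = 0.977). GW2580 blocks the kinase, so the transcript is no check of the treatment.

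Because leukocytes also express interferon-stimulated genes, marker lists were read on the arrays where the 39 genes were high. Of 21 macrophage and monocyte markers 17 were tested. Their mean level was lowest on GW2580 replicate 1, at 6.82, against 7.02 to 7.15 on the other arrays, and 0 passed with GW2580. The mean of 8 lymphocyte and NK cell markers, of 13 listed, was 6.21 and 6.22, then 5.98 and 5.98, then 6.19 and 5.97, so that it was higher on GW2580 replicate 1 than on replicate 2. That of 7 of 8 plasmacytoid dendritic cell markers, 1 of which is Bst2, lay between 7.83 and 8.0 on all arrays, and Siglech read 5.72 to 6.25. The mean of 7 of 10 neutrophil markers was 6.12 on GW2580 replicate 1 and 6.74 on replicate 2. No listed marker is at 0 on an RMA scale, where dim probe sets keep a background value. The part of these cells in the interferon values was not tested, and fewer cells of a type cannot be told apart from less RNA per cell.

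Lung epithelial signal also differed between arrays of a group. Scgb1a1, the secretoglobin of airway club cells, read 11.31 and 9.59, then 6.49 and 8.08, then 10.91 and 7.59, and Scgb3a2, another airway secretoglobin, 8.12 and 6.51, then 4.71 and 5.40, then 7.88 and 5.52. Both were higher on replicate 1 than on replicate 2 at 1 week and with GW2580, and lower with vehicle at 2 weeks, as were all 5 GTPases. So were Oas2, Irf1, Irf9, Zbp1, Parp14, Xaf1 and, by only 0.004 at 1 week, Ifit2, so this order was not that of the GTPases alone. Scgb1a1 and Scgb3a2 were singled out after their values were seen, and of the 13 lung epithelial markers tested only they and Scgb3a1 had that order in all 3 groups. The mean of the 13 was 7.34 and 7.01, then 6.92 and 6.93, then 7.14 and 6.4, and 2-week vehicle replicate 1 was the highest array for 6 of the 13. The mean of 10 of 12 fibroblast and smooth muscle markers was 8.05 on 1-week replicate 1 and 6.68 to 7.30 elsewhere, and that of 6 of 10 endothelial markers 6.07 to 6.47. Of 14 lung epithelial markers listed, the 13 tested had a median difference of -0.14 with GW2580, and 2 of them fell (0.298% of all genes did). The part of the lung cells in the interferon values was not tested.

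Control probe sets set 2 arrays apart. The hybridisation control BioB (5′) read 10.03 on 1-week vehicle replicate 1 and 8.74 to 9.02 on the other 5. The beta-actin 3′ probe set exceeded the 5′ one by 1.20 on 2-week vehicle replicate 2 and by 0.38 to 0.50 on the other 5 arrays, and for Gapdh the gap was 0.92 against -0.13 to -0.10. The 2-week array is a control in both the time and the GW2580 comparison. Without it the median GW2580 difference of the 39 genes was 0.53, with 36 above 0, and without the other 2-week vehicle array it was 0.37, with 35 above 0. A gene can have more than 1 probe set. For 15 of the 39 genes there were 23 others, 21 of them above the filter, and the GW2580 difference had the sign of the chosen one in 20 of the 21, the time difference in 18. Probe sets of close relatives, such as the IFIT, OAS and GBP genes, may read more than 1 copy, which was not tested.

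Differences are also given by promoter string, as a description with no test. The median GW2580 difference was 0.42 over the 15 genes with an ISRE-type string in their window and 0.47 over the 15 without. It was 0.29 over the 9 genes with a GAS-type string and 0.47 over the 21 without.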

How the data were processed

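RNA from GFP-sorted MVT1 cells was measured on 6 Affymetrix mouse expression arrays (Trizol extraction, biotinylated cRNA from 2 µg of RNA, per the labels' protocols). The authors deposited a table of log2 values from RMA, as the submitters' processing notes name it. Its version was not given in the sources used here. RMA quantile-normalises arrays, which hides a shift common to most genes. Arrays give no read depth, and 2 arrays per group limit the precision. Where nothing says arrays came from separate animals, p-values measure only the spread between arrays.

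Of 45101 probe sets, 64 were controls, 34945 had 1 gene symbol, 932 several and 9160 none in the platform annotation, which can be old. The probe set of highest mean was kept for each gene (18193 genes), and genes with a mean at or above the 40th percentile of probe sets (4.97) were tested (13090 genes). limma 3.58.1 in R 4.3.3 fitted means of 3 groups over all 6 arrays (eBayes without trend, residual degrees of freedom 3, prior 4.97), with Benjamini-Hochberg adjustment over all genes and a threshold of 0.05. The fit was tested on simulated data. Tables were handled with Python 3.11.15 and pandas 2.3.3.

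Per-array values and statistics are given for genes of the list that passed in any comparison and, in each role group, for the gene with the largest absolute difference in time and with GW2580. Other genes of the list are given by difference or range, and for Ifit3, Usp18, Oasl1, Oas3, Ifih1, Irf9, Stat2, Parp9, Xaf1, Igtp, Gbp2 and Gbp3 array values were added after they were seen. Of each pathway list, the genes that passed, or else up to 2 with the smallest p with GW2580, and Ifnar1, Ifngr1, Csf1r and Ptprc were named. The members, lists and rule were chosen with earlier results of these data known. Same-numbered arrays deviated together with correlations of 0.0022, 0.2922 and 0.0094 between the 3 pairs of groups, so the numbers were not taken to pair samples. Alternatives were the averaging of probe sets, a fit of all probe sets, no filter or a 60th percentile filter, eBayes with trend or trend and robust, a common 75th percentile, only the 4 arrays compared, a replicate block, and leaving out each array. In each comparison, leaving out an array of the third group gives the same fit as only the 4 arrays compared. Counts of alternatives therefore hold that fit more than once.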

Additional observations from a re-analysis of the deposited data

How the results depend on the processing

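The median differences of the 39 genes stayed within 0.27 (the pooled SD of array medians) of the main values of -0.08 in time, 0.44 with GW2580 and 0.30 for GW2580 against 1 week in all alternatives run. That SD comes from the same genes and holds the gap between the GW2580 replicates, so it is a wide bound. On leaving out 1 array the median ran from 0.22 to 0.67 with GW2580 and from 0.08 to 0.51 against 1 week. In time it ran from -0.24 to 0.02, so its sign turned. In time, 1 gene of the list fell, and 0 did with averaged probe sets, no filter or eBayes with trend, and 3 did with only the 4 arrays compared. With all probe sets fitted 0 fell, but only the chosen probe set of each gene was counted in that fit. The dimmer Trim25 probe set that differed by -0.91 in time was thus not counted. With GW2580, 0 rose in all alternatives except without GW2580 replicate 2, so leave-one-out gave 0 to 3. Over all genes, 844 passed in time (0 to 1059 on leaving out 1 array). With GW2580 48 passed, against 111 with all probe sets, 74 with no filter, 75 with trend, 131 with trend and robust, 0 with only the 4 arrays, 154 with the replicate block and 0 to 167 on leaving out 1 array. For GW2580 against 1 week, 67 passed, against 32, 139 (trend and robust), 24 (4 arrays), 182 (replicate block) and 0 to 169. With the replicate number as a block, 1223 genes passed in time, and no call in the list changed.

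The sign of the following differences, none past the threshold, turned in at least 1 alternative. With averaged probe sets the values were -0.24 for Dhx58 in time, 0.020 for Csf1r with GW2580, and, for GW2580 against 1 week, 0.13 for Rsad2, 0.10 for Il10rb and 0.018 for Tyk2. With a common 75th percentile they were -0.031 for Irf7 in time, 0.0095 for Csf1r with GW2580, and, for GW2580 against 1 week, -0.00092 for Cmpk2 and -0.0056 for Ifngr1. On leaving out 1 array, the time values ran over -0.11 to 0.40 for Dhx58, -0.20 to 0.21 for Irf7, -0.57 to 0.086 for Zbp1, -0.53 to 0.083 for Ifna1, -0.26 to 0.56 for Ifi47, -0.82 to 0.011 for Ifit1, -0.24 to 0.32 for Oas2 and -0.18 to 0.033 for Ifngr1. The GW2580 values ran over -0.12 to 0.29 for Ifna1, -0.32 to 0.29 for Csf1r, -0.39 to 0.29 for Ifit2, -0.030 to 0.19 for Ifngr1, -0.11 to 1.45 for Ifi47 and -0.034 to 0.22 for Trafd1. Against 1 week they ran over -0.034 to 0.051 for Cmpk2, -0.43 to 0.49 for Herc6, -0.028 to 0.81 for Ifit1, -0.35 to 0.25 for Irf1, -0.44 to 0.17 for Ifna1, -0.39 to 0.077 for Ifngr2, -0.72 to 0.16 for Ifi27l2a, -0.29 to 0.46 for Irgm1, -0.035 to 0.033 for Il10rb, -0.25 to 0.60 for Parp14, -0.59 to 0.028 for Csf1r, -0.48 to 0.22 for Rsad2, -0.37 to 0.16 for Jak2, -0.22 to 0.015 for Tyk2 and -0.096 to 0.10 for Ifngr1. The cause was not tested. Precision is limited by 2 arrays per group.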
